A study of Volvox carteri with 4 samples.

Results

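The *regA* gene cluster of *Volvox carteri* consists of *regA* and the neighbouring genes *rlsA*, *rlsB* and *rlsC*. These 4 of the 16008 counted gene models were taken by their locus identifiers, which are Vocar.0021s0042 for *regA*, Vocar.0021s0041 for *rlsA*, Vocar.0021s0043 for *rlsB* and Vocar.0021s0045 for *rlsC*. Polyadenylated RNA was sequenced from 2 gonidial and 2 somatic cell preparations of the female strain Eve, grown without treatment and harvested as hatched adult spheroids at hour 42 of the 48 hour life cycle, 6 hours into the second light period. Each preparation was made from pooled spheroids of its own set of cultures, and no culture gave both cell-types. Gonidia are the large germ cells without flagella, and somatic cells are the small flagellated cells of the spheroid surface that do not divide. The comparison asks in which cell-type each gene of the cluster is transcribed.

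*regA* is the somatic regenerator gene. In *regA* mutants the somatic cells form normally, then enlarge and redifferentiate into gonidia. Its product enters the nucleus and is thought to keep somatic cells from reproducing by repressing transcription. It belongs to the VARL family (volvocine algae RegA-like), whose proteins share a DNA-binding domain of the SAND type. The other members carry the name *rls*, for *regA*-like sequence, and no cellular role is given here for *rlsA*, *rlsB* or *rlsC*.

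The RefSeq annotation of assembly v1.0, matched by protein identifier, gives all 14 VARL genes the same symbols as the study's list. In that annotation the cluster runs in the order *rlsC*, 1 unnamed gene, *rlsB*, *regA*, *rlsA*, which is the reverse of the order of the locus numbers. The counts were made on the version 2 assembly, so no coordinates are given. The annotated spans of *rlsB* and *regA* overlap in v1.0, whereas those of *regA* and *rlsA* do not. The library protocol as described does not mark strand, and reads from any shared stretch of *rlsB* and *regA* cannot be told apart. Whether the counted gene models overlap was not tested. Only uniquely mapped reads were counted, so reads that fit several VARL genes equally well are absent from the values.

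The libraries held between 10838222 and 13104583 counts. The limit of detection was taken as 3 counts (0.229 to 0.277 CPM, counts per 1000000 counted reads), the level that a count of 0 still allows by counting error alone. The flagellar and matrix genes followed the labels. Of 83 axoneme genes, which build the flagellar shaft, 81 were called somatic (adjusted p under 0.05 and 2-fold or more) and 0 gonidial, beside 26.0% and 46.7% of all tested genes, with summed levels of 1204 to 1268 CPM in gonidia and 27766 to 31479 in somatic cells. No axoneme gene was at 0 in gonidia. Of the 19 cDNA clones isolated earlier as gonidial, 9 were called gonidial, 8 were not called and 2 were called somatic, a gonidial share close to the 46.7% of all tested genes. Their median log2 fold change was -0.94, beside -0.85 for all tested genes, with summed levels of 87339 to 93034 CPM in gonidia and 43766 to 53851 in somatic cells. The clones called somatic were G1 (Vocar.0071s0004, log2 fold change 1.18) and G15 (Vocar.0082s0014, 2.33). The somatic matrix glycoprotein gene *ssgA* (Vocar.0002s0564) was counted 33 and 40 times in gonidia and 63018 and 74766 times in somatic cells. These are bulk preparations, in which fewer expressing cells and less RNA per cell cannot be told apart.

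Transcripts of *regA* were found in somatic cells and almost not at all in gonidia. Its counts were 1 and 0 in gonidial replicates 1 and 2 and 486 and 786 in somatic replicates 1 and 2. Scaled to the library sizes, the normalized counts were 1.04 and 0 in gonidia and 522 and 663 in somatic cells. Both somatic libraries therefore lay far above both gonidial libraries, and the gonidial signal was a single read. Somatic over gonidial, the log2 fold change of *regA* was 9.82 with a standard error of 1.40, and its p after Benjamini-Hochberg adjustment over 13350 tested genes was 2.59e-12 (quasi-likelihood test of edgeR). The summed normalized counts had a ratio of 1132, with a 95% exact counting interval of 203 to 44743. The width of this interval comes from the single gonidial read. The fitted value depended on that read as well. The log2 fold change was 12.23 without gonidial replicate 1, which leaves no gonidial read, and 9.0 without gonidial replicate 2.

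The replicates of *regA* were close to each other. Somatic replicate 2 had 1.27 times the normalized count of somatic replicate 1, and 54.0% of the 12468 tested genes counted in both somatic libraries differed more between these replicates. Per length, the level was 6.59 ± 1.35 RPKM in somatic cells (SD, n = 2). RPKM denotes reads per kilobase of gene model and per 1000000 counted reads, here after addition of 0.1 counts to each gene. In gonidia the level was 0.00651 ± 0.00768 RPKM (SD, n = 2), a value made largely of the single read and the added counts.

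Of the *rls* genes in the cluster, *rlsB* and *rlsA* had the same direction as *regA* at much lower levels. *rlsB* had 1 and 1 counts in gonidia and 21 and 36 in somatic cells, or 1.04 and 1.08 against 22.6 and 30.4 normalized counts. The somatic libraries lay above the gonidial ones in every pairing. The log2 fold change of *rlsB* was 4.50 with a standard error of 1.07 (adjusted p = 8.20e-06, same edgeR test), and its ratio of summed normalized counts was 25.4, with an exact 95% counting interval of 6.71 to 214. The value was steady when libraries were left out, between 4.25 and 4.69.

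*rlsA* had 0 and 1 counts in gonidia and 12 and 13 in somatic cells, or 0 and 1.08 against 12.9 and 10.96 normalized counts. The groups did not overlap here either, but few reads carry the difference. The log2 fold change of *rlsA* was 4.19 with a standard error of 1.54 (adjusted p = 4.65e-04, same edgeR test), and its ratio was 22.2, with an exact 95% counting interval of 3.64 to 913. With the DESeq2 Wald test the adjusted p of *rlsA* was 0.0182. Left-out libraries moved it in the opposite way to *regA*, since its single gonidial read is in the other library. The log2 fold change of *rlsA* was 3.31 without gonidial replicate 1 and 6.62 without gonidial replicate 2.

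*rlsC* was not detected in somatic cells. It had 1 and 0 counts in gonidia and 0 and 0 in somatic cells, so that both cell-types lay at or under the limit of 3 counts and no fold is given. It fell below the filter on low counts and had no test in the edgeR fit. When every gene with a count was tested, the edgeR test gave *rlsC* an adjusted p of 0.398. At this depth the 0 counts in the somatic libraries still allow a level of up to 0.0587 to 0.0709 RPKM, which is that of 3 counts.

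**Figure D1:**
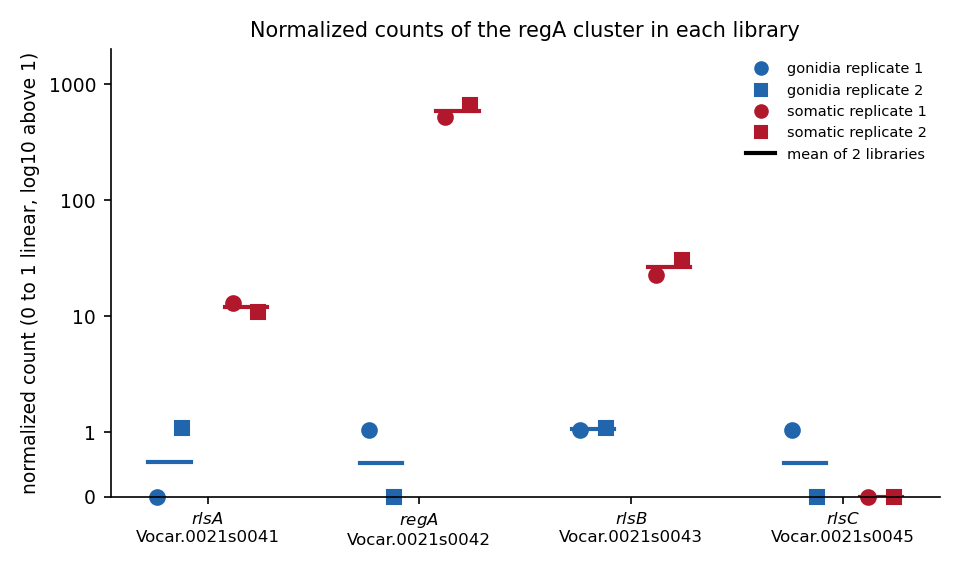
Normalized counts (y axis, linear from 0 to 1 and log10 above) of *rlsA*, *regA*, *rlsB* and *rlsC* in each of the 4 libraries, with circles for replicate 1, squares for replicate 2 and bars for the mean of 2 libraries. Every gonidial point lies at or near 0 to 1.08, whereas the somatic points lie at 522 and 663 for *regA*, 22.6 and 30.4 for *rlsB*, 12.9 and 10.96 for *rlsA* and 0 for *rlsC*.

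All 3 tested members were called somatic, which required an adjusted p under 0.05 and 2-fold or more, beside 26.0% of all tested genes called somatic by the same rule. This count is no support for a shared direction. The filter kept genes with a mean above 2.50 normalized counts, and the gonidial means of *regA* (0.520), *rlsA* (0.542) and *rlsB* (1.06) all lie below that, so that each passed only through its somatic counts. The 4th member, *rlsC*, did not pass. All 3 exceeded 5-fold, the limit for somatic-specific genes, which 16.9% of tested genes passed. Every somatic library was higher than every gonidial library for the 3 members and for 33.4% of tested genes. An exact permutation test of a single gene with 2 libraries per cell-type has a smallest two-sided p of 0.33, so the adjusted values draw on variance shared across genes.

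By size of change, *regA* ranked above *rlsA* and *rlsB*. Its log2 fold change was the 76th highest of the 13350 tested genes, whereas *rlsB* stood at rank 1117 and *rlsA* at rank 1236. In other words, 0.562%, 8.36% and 9.25% of tested genes had a higher value, in that order. The counting intervals of the ratios overlap among *regA*, *rlsA* and *rlsB*, and no difference of fold change between members was tested. So few gonidial reads at this somatic abundance were uncommon. There were 2601 tested genes with at least 400 normalized counts in both somatic libraries. Of these, 30 (1.15%) had at most 1 read in the gonidial libraries together, *regA* among them. Both limits follow the values of *regA* itself, so this share describes its pattern and is no test of it.

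**Figure D2:**
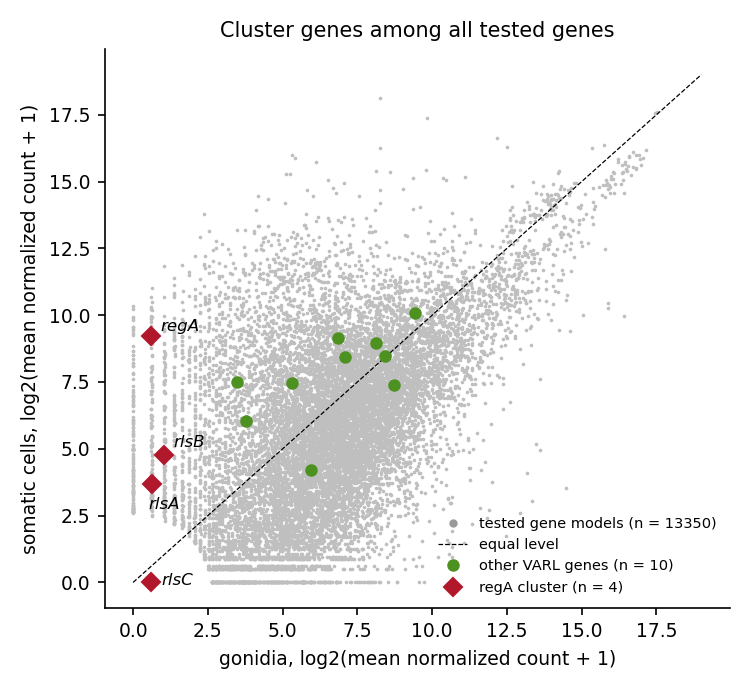
Mean level in gonidia (x axis) and in somatic cells (y axis) of the 13350 tested gene models (grey), both as log2(mean normalized count + 1), with the 10 other VARL genes in green, the 4 cluster genes in red and a dashed line of equal level. *regA*, *rlsB* and *rlsA* lie at the left edge above the line, and *rlsC*, which was not tested, lies near the origin.

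Within somatic cells, nearly all reads of the cluster came from *regA*. It took 486 of 519 reads in somatic replicate 1 (93.6%, 95% Clopper-Pearson interval 91.2 to 95.6) and 786 of 835 in somatic replicate 2 (94.1%, 92.3 to 95.6). After division by gene length, which was 7.948 kb for *regA*, 6.836 kb for *rlsB*, 4.658 kb for *rlsA* and 3.903 kb for *rlsC*, its share was 91.5% and 92.5%. Per length, *regA* exceeded *rlsB* 19.9-fold (95% counting interval 12.9 to 32.5) in somatic replicate 1 and 18.8-fold (13.4 to 27.0) in somatic replicate 2. These intervals overlap each other. Whether reads from a stretch shared by *rlsB* and *regA* enter either count was not tested. *regA* exceeded *rlsA* per length 23.7-fold (13.5 to 46.3) and 35.4-fold (20.6 to 66.8). These intervals overlap each other.

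The levels per length of *rlsB* and *rlsA* were closer to each other. In somatic cells they were 0.344 ± 0.0836 RPKM for *rlsB* and 0.227 ± 0.0177 RPKM for *rlsA* (SD, n = 2). The ratio of *rlsB* to *rlsA* was 1.19 (95% counting interval 0.560 to 2.66) in somatic replicate 1 and 1.89 (0.977 to 3.88) in somatic replicate 2, and both intervals include equal levels. *rlsC* had no somatic read. Against its limit of 3 counts per library, the observed level of *regA* per length was 79.6-fold higher in somatic replicate 1 and 129-fold higher in somatic replicate 2. The corresponding ratios were 4.00-fold and 6.85-fold for *rlsB* over *rlsC*, and 3.35-fold and 3.63-fold for *rlsA* over *rlsC*. These ratios leave out the counting error of *regA*, *rlsB* and *rlsA*, so they are not lower bounds. That error is large for *rlsB* and *rlsA*, which had few reads. In gonidia the cluster had 3 and 2 reads in all, and no order of its members can be read there.

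The VARL family has 10 further members in other parts of the genome, and all 10 were tested. In gonidia their counts were higher than those of the cluster. Their lowest gonidial value was 8 counts, for *rlsI* (Vocar.0020s0165), whereas no member of the cluster exceeded 1 count in a gonidial library. Per length, every gonidial value of the cluster lay at or under 0.0243 RPKM and every value of the other VARL genes at or above 0.0726 RPKM. In somatic cells the cluster was spread over the family. *regA*, at 5.64 and 7.55 RPKM, ranked 3rd of 14, behind *rlsE* (9.82 ± 0.565 RPKM) and *rlsH* (7.82 ± 2.27 RPKM, SD, n = 2). The libraries of *regA* overlapped with those of *rlsH*, and lay above those of *rlsL* (5.10 ± 0.319 RPKM), the next in order. *rlsB* and *rlsA* ranked 11th and 12th, between *rlsI* (0.599 ± 0.0124 RPKM) and *rlsM* (0.166 ± 0.0476 RPKM), with no overlap between neighbours in that order. Few reads carry these ranks, with 12 and 13 somatic counts for *rlsA* and 20 and 16 for *rlsM*. Counting error was not included in the order.

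**Figure D3:**
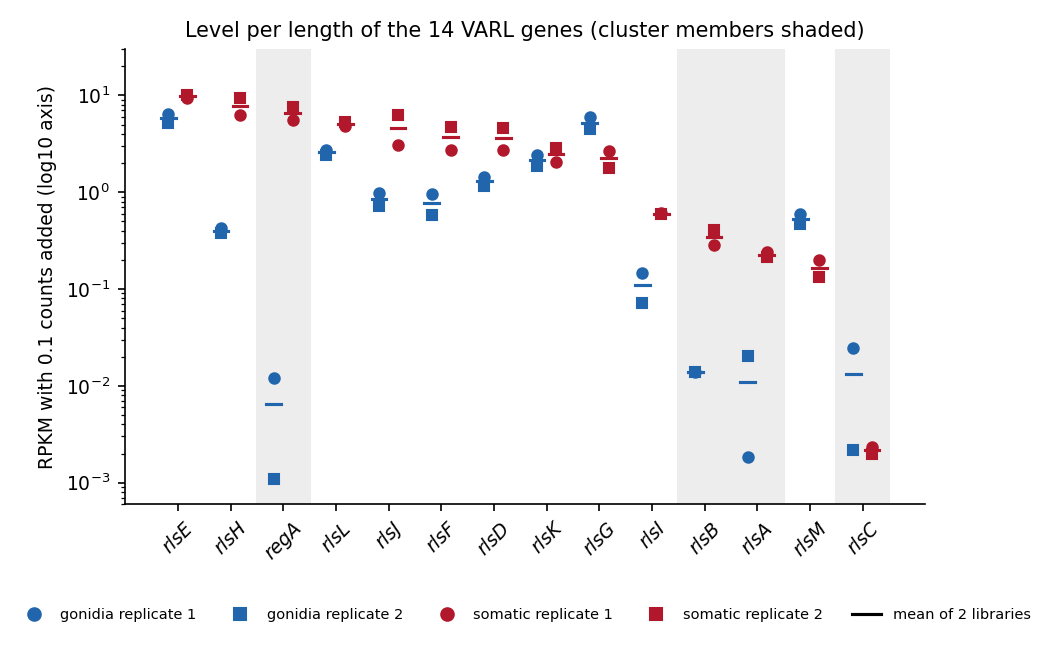
Level per length (y axis, RPKM with 0.1 counts added, log10 axis) of the 14 VARL genes in each library, ordered by the somatic mean and with the cluster shaded. Circles and squares are replicates 1 and 2, blue is gonidia, red is somatic cells and bars are means. The gonidial points of the cluster, at or under 0.0243 RPKM, lie under those of all other VARL genes.

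Of the 10 VARL genes outside the cluster, 5 were called somatic (50.0%, beside 26.0% of all tested genes), 2 were called gonidial (46.7% of all tested genes were) and 3 were not called. The median log2 fold change was 1.11, beside -0.85 for all tested genes. The largest change belonged to *rlsH* (Vocar.0022s0042), which had 10 and 9 counts in gonidia and 139 and 255 in somatic cells, and changed by 4.16 on the log2 scale with a standard error of 0.42 (adjusted p = 6.09e-09, edgeR). In size this is near the values of *rlsA* and *rlsB*, but with more gonidial reads.

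The other somatic calls were *rlsI*, *rlsJ* (Vocar.0024s0052), *rlsF* (Vocar.0008s0105) and *rlsD* (Vocar.0026s0121), with log2 fold changes of 2.34, 2.32, 2.17 and 1.36. For *rlsD* the change dropped below 2-fold without somatic replicate 2 (0.98). The gonidial calls were *rlsM* (Vocar.0025s0071), at -1.82, and *rlsG* (Vocar.0003s0512), at -1.34. *rlsM* had 64 and 51 counts in gonidia and 20 and 16 in somatic cells, so that the libraries did not overlap. *rlsE* (Vocar.0003s0509, 0.62), *rlsL* (Vocar.0001s1384, 0.86) and *rlsK* (Vocar.0024s0053, 0.07) did not reach a 2-fold change. Only *rlsK* among the 10 had overlapping libraries. Libraries without overlap were common over all tested genes, with both somatic libraries above in 33.4% and both gonidial libraries above in 57.2%.

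These calls depended on the scaling of the libraries, which fixes where the median gene lies. With edgeR's TMM normalization the median over all tested genes shifted by 0.59 on the log2 scale, with DESeq2's size factors by 0.71 and with plain totals by 0.12. Under TMM and under DESeq2's size factors, *rlsE* and *rlsL* were called somatic and *rlsG* was not called, which gave 7 somatic genes and 1 gonidial gene among the 10, beside 32.2% and 33.6% of tested genes called somatic and 38.0% and 36.2% called gonidial. With glmTreat, which tests against a 2-fold change, only *rlsM* was called gonidial (40.7% of tested genes were). *rlsD* lost its somatic call there (adjusted p = 0.0501, glmTreat of edgeR). This left 4 somatic genes among the 10, beside 22.6% of tested genes called somatic. The direction of each of the 3 tested cluster genes held under every scaling, with log2 fold changes of 9.82 to 10.46 for *regA*, 4.50 to 5.17 for *rlsB* and 4.19 to 4.83 for *rlsA*.

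Around the cluster, 21 other gene models carry locus numbers from 10 before *rlsA* to 10 after *rlsC*. Of these, 17 were tested, 2 had counts but were not tested and 2 had no count. Calls were mixed, with 6 somatic (35.3%, beside 26.0% of all tested genes), 6 gonidial (35.3%, beside 46.7%) and 5 not called. With TMM and with DESeq2's size factors 9 were called somatic, beside 32.2% and 33.6% of tested genes, and 6 and 5 gonidial, beside 38.0% and 36.2%. On the side of *rlsA*, 2 of 9 tested models were somatic and 4 gonidial, and on the side of *rlsC*, 3 of 7 were somatic and 2 gonidial. The files pair none of these models with a name.

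The tested cluster genes lay within a stretch of 5 consecutive models called somatic, from Vocar.0021s0040 through *rlsA*, *regA* and *rlsB* to Vocar.0021s0044. Apart from Vocar.0021s0040, these models had gonidial means of 0.520 to 1.06 normalized counts, under the filter limit of 2.50. Each was thus tested only through its somatic counts. How often such stretches occur among all gene models was not tested. Vocar.0021s0040, beside *rlsA*, was counted 114 and 84 times in gonidia and 900 and 1418 times in somatic cells, a log2 fold change of 3.36 with a standard error of 0.25 (adjusted p = 8.42e-10, edgeR). Unlike the cluster genes it was readily counted in gonidia. Vocar.0021s0044, between *rlsB* and *rlsC*, had 0 and 1 counts in gonidia and 5 and 14 in somatic cells, a log2 fold change of 3.78 with a standard error of 1.62 (adjusted p = 0.00263, edgeR). Its call is weak. Without gonidial replicate 1 the adjusted p was 0.0539 and the log2 fold change 2.89, without gonidial replicate 2 the log2 fold change was 6.20, and edgeR's filterByExpr removed the gene. With that filter 3 neighbours were called somatic, beside 26.7% of the 12356 genes then tested.

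The stretch ended on both sides. Vocar.0021s0039 was not called (log2 fold change 0.69, adjusted p = 0.116 in the edgeR test), although TMM and DESeq2's size factors called it somatic at 1.28 and 1.39. On the other side came *rlsC*, without a test, and then Vocar.0021s0046, which was gonidial at -2.77, with 32 and 36 gonidial counts and 4 and 7 somatic ones. The called neighbours with the largest change toward somatic cells were Vocar.0021s0054 (3.95) and Vocar.0021s0044. Vocar.0021s0054 rests on 1 and 0 counts in gonidia and 12 and 9 in somatic cells, and its log2 fold change ranged from 3.13 to 6.37 without a library in turn. Those with the largest change toward gonidia were Vocar.0021s0031 (-5.09), with 25 and 13 against 0 and 1 counts, and Vocar.0021s0048 (-4.71), with 44 and 32 against 2 and 1. Without a library in turn, these ranged from -7.25 to -4.39 and from -5.39 to -4.15.

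**Figure D4:**
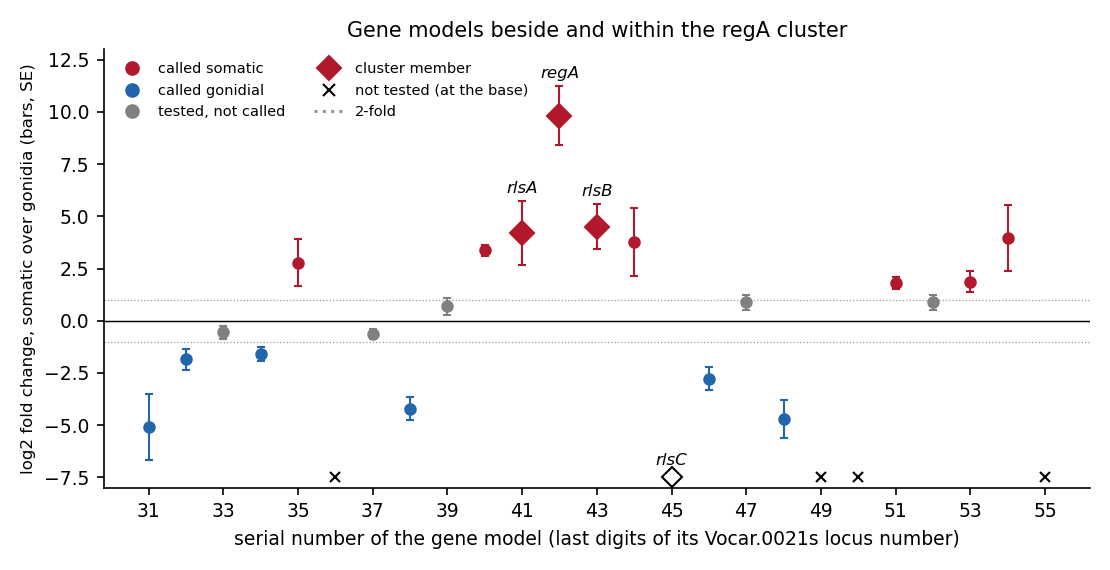
Log2 fold change, somatic over gonidia (y axis, bars are standard errors), of the gene models in the order of their locus numbers (x axis), with diamonds for the cluster and red, blue and grey for models called somatic, called gonidial and not called. Untested models stand at the base, and dotted lines mark 2-fold. *regA* stands at 9.82, above every model shown, and *rlsC* sits between Vocar.0021s0044 (3.78) and Vocar.0021s0046 (-2.77).

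The genes most like *regA* over the 4 libraries, by Euclidean distance of log2(normalized count + 1), were Vocar.0059s0040 (distance 0.36, with 1 and 0 counts in gonidia and 557 and 966 in somatic cells) and Vocar20014870m.g (distance 0.40, with 1 and 0 against 638 and 759). In all, 8 tested genes lay within a distance of 1. For *rlsB* the nearest were Vocar.0037s0154 (0.18) and Vocar20015158m.g (0.32), among 15 within that distance, and for *rlsA* Vocar.0022s0083 (0.22) and Vocar.0003s0381 (0.67), among 11. None of these has a name in those of the study's lists that were searched. Its lists of photosynthesis and carbon metabolism genes were not among them. The measure covers 4 libraries of 2 cell-types, and at few counts the distance includes counting error.

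The calls of the 3 tested members held under all 12 alternative settings, which comprised other scalings, filters and tests, the replicate number as a term and each library left out. Under these settings 22.6% to 33.6% of tested genes were called somatic. The largest adjusted p among them was 1.41e-10 for *regA*, 4.44e-04 for *rlsB* and 0.0182 for *rlsA*, each from edgeR or DESeq2 after Benjamini-Hochberg adjustment.

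**Figure D5:**
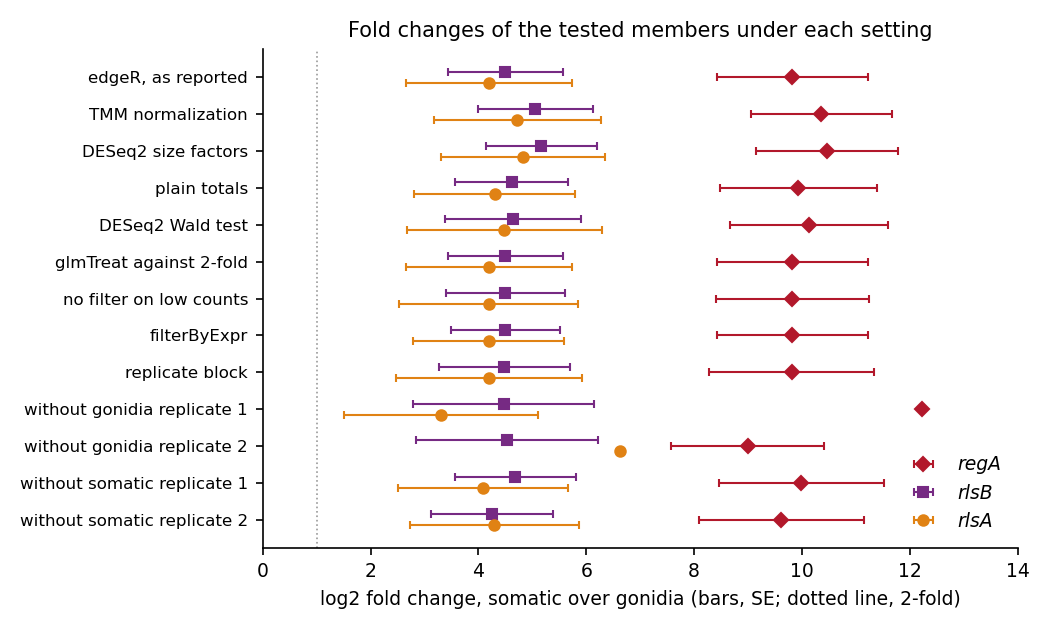
Log2 fold change, somatic over gonidia (x axis, bars are standard errors), of *regA*, *rlsB* and *rlsA* in the reported fit and under 12 alternatives (y axis), with a dotted line at 2-fold. Points without bars are fits in which no gonidial read was left. *regA* lies between 9.0 and 12.23, *rlsB* between 4.25 and 5.17 and *rlsA* between 3.31 and 6.62.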

How the data were processed

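RNA of 2 gonidial and 2 somatic preparations was sequenced with 50 bp single-end reads. The authors trimmed reads with Trimmomatic, mapped them by STAR onto the version 2 assembly and assigned uniquely mapped reads with HTSeq to merged version 2.1 and 2.0 gene models. The HTSeq overlap and strand settings and the tool versions are not given in the sources used here. The deposited values are raw counts per gene model, without normalization or pooling.

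The gene models with the highest 0.3% of count values in a library were left out of its size. This removed 31.7% and 34.9% of the counted reads of gonidial replicates 1 and 2. In somatic replicates 1 and 2 it removed 29.4% and 25.6%. Genes without a count and then the bottom 10% by mean normalized count were removed, which left 13350 genes for edgeR's quasi-likelihood test with cell-type as the only term. Genes were called at an adjusted p under 0.05 and at least 2-fold. The standard errors of log2 fold changes are Wald errors from the fitted model. Ratio intervals are exact and conditional on the summed counts. They cover counting error only, as do Clopper-Pearson intervals, and PCR copies are not independent molecules. Gene lengths were solved from the RPKM values and the counts of the study's VARL list, so mean RPKM of these genes equals that list by construction.

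Alternatives were plain totals, TMM or DESeq2's size factors for scaling, the DESeq2 Wald test, glmTreat, no filter, filterByExpr, the replicate number as a block and each library left out. Named genes were the members, the other VARL genes, the neighbours with the largest called changes or lying between members, and the 2 genes nearest to each tested member. Vocar.0021s0034, Vocar.0021s0035, Vocar.0021s0039, Vocar.0021s0040 and Vocar.0021s0046 were named after their values were seen. Members and lists were chosen with earlier results of these data known. The steps were tested on simulated data. Versions were R 4.3.3, edgeR 4.0.16, DESeq2 1.42.0, matplotlib 3.10.9, scipy 1.17.1, pandas 2.3.3, numpy 2.4.6 and Python 3.11.15.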

Additional observations from a re-analysis of the deposited data

How the results depend on the processing

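The calls and directions of *regA*, *rlsB* and *rlsA* held under all 12 alternatives run. Without 1 library in turn, their log2 fold changes ranged from 9.0 to 12.23, from 4.25 to 4.69 and from 3.31 to 6.62. The normalized difference of *rlsC*, somatic minus gonidial, ranged from -1.04 to 0.

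Among the 10 other VARL genes the gonidial calls fell from 2 to 1 with TMM, DESeq2's size factors and glmTreat, and the somatic calls ranged from 4 to 5 without 1 library. Among the neighbouring gene models the somatic calls fell from 6 to 3 with filterByExpr, which tested fewer genes, rose to 9 with TMM and with DESeq2's size factors, and ranged from 4 to 7 without 1 library. The gonidial calls were 5 with DESeq2's size factors, which lost Vocar.0021s0034, and 6 without any 1 library. Over the 12 alternatives, 22.6% to 33.6% of all tested genes were called somatic. Without the 0.1 added counts, *rlsB* in gonidia had 0.0126 RPKM and *rlsC* in somatic cells 0 RPKM. The alternative gene length, a coding length from RefSeq proteins, was not run.

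Same-numbered libraries did not deviate together (correlation -0.04 across 13350 genes, which are not independent), and each cell-type came from its own cultures. With the replicate block the log2 fold changes were 9.81 for *regA*, 4.48 for *rlsB* and 4.19 for *rlsA*, no member's call changed, and 3449 somatic and 6215 gonidial genes were called in place of 3471 and 6233. Depth limits the cluster in gonidia, where *regA*, *rlsA*, *rlsB* and *rlsC* had 1, 1, 2 and 1 reads in both libraries together.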

Other observations

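Other VARL genes also lie close to each other by locus number. *rlsJ* (Vocar.0024s0052) and *rlsK* (Vocar.0024s0053) are consecutive, and *rlsJ* had 124 and 90 gonidial counts and 361 and 884 somatic counts, whereas *rlsK* had 363 and 281 gonidial and 288 and 482 somatic counts. Their log2 fold changes were 2.32 and 0.07. *rlsE* (Vocar.0003s0509) and *rlsG* (Vocar.0003s0512) had log2 fold changes of 0.62 and -1.34 in the reported fit, and 1.34 and -0.61 with DESeq2's size factors. The differences within these pairs were not tested.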
